A study of Mus musculus with 6 samples.

Results

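The annexins described here are the 9 family genes Anxa1, Anxa2, Anxa3, Anxa4, Anxa5, Anxa6, Anxa7, Anxa8 and Anxa11, chosen by symbol from a table of 24016 mouse genes. They were followed through all 6 libraries of sorted cells from the esophageal epithelium. Of the other annexins in the table, Anxa10 and Anxa13 were listed at 0 in every library and Anxa9 did not exceed 0.162 FPKM (fragments per kilobase of transcript, scaled to the mapped fragments of the library). All 6 libraries came from Krt15-CrePR1;R26mTomato/mGFP mice, in which the Krt15 promoter drives a Cre recombinase that the progesterone receptor antagonist RU486 activates, and in which recombination switches a membrane reporter from Tomato to GFP. The mice received 1 mg of RU486, and after 24 h the cells high in CD29 (integrin beta-1) were sorted into a GFP-negative group, labelled Krt15-negative, and a GFP-positive group, labelled Krt15-positive, with 3 libraries each. The groups therefore differ by reporter recombination, and a cell that uses the Krt15 promoter without having recombined falls into the Krt15-negative group. The sources used here give neither age nor strain, nor whether each library is a separate animal, so p-values measure only the spread from library to library, part of which may be technical.

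Annexins are cytosolic proteins that bind acidic phospholipids of membranes when calcium rises, through a conserved core of annexin repeats, and differ mainly in the N-terminal tail ahead of that core. The tail of annexin A2 binds S100A10 and that of annexin A1 binds S100A11, and such complexes link membranes to each other and to the cortical actin network. In stratified epithelia annexins are known for roles in membrane repair, vesicle traffic and, for annexin A1, in glucocorticoid-regulated control of inflammation.

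The libraries differed in how many genes they held. Between 3247 and 9194 genes reached 1 FPKM, the lowest number being that of Krt15-negative replicate 1. The estimated depth was 27.6 to 42.2 M fragments per library (M, mega, read from the single-fragment step of low values and approximate). Krt15-negative replicate 1 stood at 28.9 M, and Krt15-positive replicate 1, with 8466 genes at 1 FPKM or more, at 27.6 M. Keratins of basal and of suprabasal cells were both abundant. Krt5 stood at 369 to 1293 FPKM and Krt14 at 949 to 3199 FPKM over the 6 libraries, while Trp63, a transcription factor of epithelial progenitors, was low in Krt15-negative replicate 1 (0.459 FPKM) and lay between 30.8 and 87.2 FPKM in the other 5. Itgb1, the gene of the CD29 used in sorting, stood at 1.03 FPKM in Krt15-negative replicate 1 and at 10.8 to 43.3 FPKM in the others. Such low values were common in Krt15-negative replicate 1. Of tested genes with a mean of 10 to 30 FPKM in the other 5 libraries, 67.4% were below 1 FPKM there. At 30 to 60 FPKM the share was 51.3%. Of the suprabasal markers, Krt4 ran from 606 to 6295 FPKM, Krt13 from 847 to 3771 FPKM and Krtdap from 0 to 41287 FPKM. Ivl did not exceed 0.0177 FPKM. Of 8 basal and 5 suprabasal markers tested, 1 of each was higher in every Krt15-positive library than in any Krt15-negative one. Of all genes tested 8.85% were so. Col17a1 stood at 42.2 to 55.8 against 15.8 to 26.9 FPKM, and Sprr3 at 30.5 to 129 against 0.12 to 29.7 FPKM. Neither passed (limma adjusted p = 0.79 for each). Krt15, the gene that names the groups, overlapped between them (log2 difference 0.18, limma adjusted p = 0.93). Most fibroblast markers had higher values in the Krt15-negative libraries, none past the test, with 7 of 9 tested markers lower in every Krt15-positive library than in any Krt15-negative one, as were 2.44% of all genes tested, and a summed level of 387 to 1172 FPKM against 164 to 320 FPKM. In Krt15-positive cells Mfap5, Dpt and Col3a1 of that list did not exceed 0.0744 FPKM, and Pdgfra was at most 1.57 FPKM in any library. Most of the sum in Krt15-positive cells came from Dcn, at 167, 176 and 71.1 FPKM against 13.9, 267 and 457 FPKM in Krt15-negative cells with a log2 difference of 0.07, and from Gsn, at 22.6, 141 and 92.3 FPKM against 210, 277 and 384 FPKM. The 8 immune markers summed to 312 to 938.5 FPKM in Krt15-negative cells and to 146 to 7316 FPKM in Krt15-positive cells, with Ptprc (CD45) at most 3.95 FPKM. The highest of these sums came from Lyz2, at 7279 FPKM in Krt15-positive replicate 1. Of the 6 immune markers tested 4 had differences below 0, with a median of -1.74, and Tyrobp did not overlap (203, 124 and 31 FPKM in Krt15-negative cells, and 0, 20.2 and 27.6 FPKM in Krt15-positive cells, limma adjusted p = 0.79). The 4 endothelial markers summed to at most 4.045 FPKM in Krt15-negative cells, most of it Pecam1 at 3.87 FPKM in replicate 3. They summed to 0 in every Krt15-positive library, and Cdh5 was listed at 0 throughout. The 5 muscle markers summed to at most 9.94 FPKM in any library. Fibroblasts and immune cells also express annexins, and the part of these cells in the annexin values was not tested. In sorted bulk RNA, fewer cells of a type and less RNA per cell cannot be told apart.

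No annexin differed between Krt15-positive and Krt15-negative cells past the test, and none of the 9 separated the groups. The family fell into 3 tiers of level that held in both groups: Anxa1 and Anxa2 at about the level of the basal keratins, Anxa5 below them, and the other 6 lower still and, except for Anxa8, far more uneven between libraries. All 9 members had a mean of at least 1 FPKM and entered the test, which called 0 of 9 members and 0 of 9423 genes (0%) at an adjusted p below 0.05 (limma on log2(FPKM + 1), Benjamini-Hochberg over all genes tested). At an unadjusted p below 0.05 it counted 0 of 9 members and 370 genes (3.93%). Of all genes tested, 11.3% had groups that did not overlap, against 0 of 9 members.

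**Figure D1:**
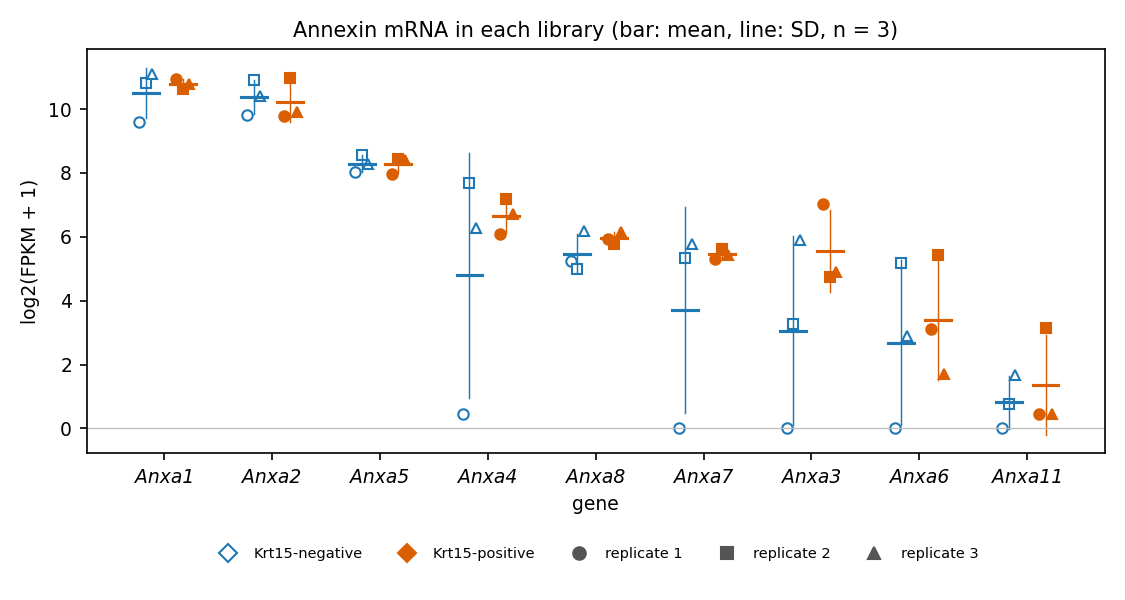
Level of each annexin in each library, as log2(FPKM + 1) on the vertical axis, with genes on the horizontal axis. Open blue symbols are Krt15-negative and filled orange symbols Krt15-positive libraries, the shape gives the replicate number, horizontal bars are group means and vertical lines the SD (n = 3). Anxa1, Anxa2 and Anxa5 stand above the rest in every library, and the circles of Krt15-negative replicate 1 lie at or near 0 for Anxa3, Anxa4, Anxa6, Anxa7 and Anxa11.

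Anxa1 and Anxa2 were the most abundant annexins and exchanged the first place between libraries. Anxa1, which encodes the annexin A1 of inflammation control, reached 777, 1810 and 2183 FPKM in Krt15-negative cells and 1951, 1596 and 1783 FPKM in Krt15-positive cells, each in the order of replicates 1 to 3, as in all values that follow. The Krt15-negative replicate 1 library was the low one, and the Krt15-positive values lay inside the range of the Krt15-negative ones (1590 ± 728 against 1777 ± 178 FPKM, SD, n = 3). On the log2(FPKM + 1) scale Krt15-positive cells were 0.28 higher, an estimate with SE 0.38 and 95% CI from -0.54 to 1.11 that did not pass (limma adjusted p = 0.84). The sign turned, to -0.17, without Krt15-negative replicate 1.

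Anxa2 encodes the S100A10-binding annexin of the cell cortex. It reached 905, 1925 and 1357 FPKM in Krt15-negative cells and 889, 1990 and 963 FPKM in Krt15-positive cells. Both replicate 2 libraries were the highest and both replicate 1 libraries the lowest, and the groups overlapped (1395 ± 511 against 1281 ± 615 FPKM, SD, n = 3). The log2 difference was -0.16 (SE 0.40, 95% CI -1.04 to 0.72, limma adjusted p = 0.93). Anxa1 exceeded Anxa2 in 3 of 6 libraries, so their order did not hold beyond the spread between libraries. In each library at least 97.2% of the tested genes were lower than Anxa1 and at least 97.5% lower than Anxa2. Anxa2 has processed copies in the mouse genome, and how the authors shared reads among near-identical sequences is not given in the sources used here.

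The promoter windows of these abundant members are shown because both hold a TATAAA box, the core element read by the TATA-binding protein, on the gene's own strand, and no other window of the family did. RefSeq windows (GRCm38.p6, a build other than that of the deposited values) run from 250 bases before to 50 bases after the annotated start, and were found for 7 of 9 members, in 9 windows. In the lines that follow, capitals mark TATAAA in both genes and, further upstream in Anxa2, an AP-1 motif (TGANTCA, with N any base). The Anxa1 window is chr19:20390622-20390921 on the minus strand and the Anxa2 window chr9:69453433-69453732 on the plus strand.
Anxa1: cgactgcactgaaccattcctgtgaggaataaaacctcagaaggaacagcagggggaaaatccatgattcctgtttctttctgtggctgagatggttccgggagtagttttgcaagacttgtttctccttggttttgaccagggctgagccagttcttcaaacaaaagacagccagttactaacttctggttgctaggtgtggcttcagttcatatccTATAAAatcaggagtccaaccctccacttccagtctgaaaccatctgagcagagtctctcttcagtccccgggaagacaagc
Anxa2: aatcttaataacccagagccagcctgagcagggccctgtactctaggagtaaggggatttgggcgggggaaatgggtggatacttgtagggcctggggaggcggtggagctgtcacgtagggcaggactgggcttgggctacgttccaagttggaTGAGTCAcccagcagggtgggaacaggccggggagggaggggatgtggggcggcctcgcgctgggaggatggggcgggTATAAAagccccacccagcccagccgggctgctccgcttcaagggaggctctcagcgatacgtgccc
The box began 32 bases before the annotated start in Anxa1 and 17 bases before it in Anxa2. Over all 32851 windows of the same length, 13.6% held TATAAA on either strand and 1.99% held it on the gene's strand 40 to 20 bases before the start, which among the member windows was the case for Anxa1 alone. The AP-1 motif was in 7.81% of all windows and in no member window but that of Anxa2. The GC box (GGGCGG or its reverse complement) was in 35.7% of all windows and in those of Anxa2, Anxa7 and Anxa11 and in 1 of the 2 windows of Anxa4, while CCAAT or its reverse complement, in 37.4% of all windows, was in no member window. These motifs were chosen after the windows had been seen, and a match is a string of letters, not a measured binding site.

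Anxa5, the phosphatidylserine-binding annexin used in apoptosis assays, came next after Anxa1 and Anxa2 in all 6 libraries and was the most even member. It reached 259, 376 and 309 FPKM in Krt15-negative cells and 248, 343 and 342 FPKM in Krt15-positive cells (315 ± 58.6 against 311 ± 54.7 FPKM, SD, n = 3). Its range lay wholly below those of Anxa1 and Anxa2 and wholly above those of the other 6 members. The log2 difference was -0.02, with SE 0.50, 95% CI -1.11 to 1.07 and limma adjusted p = 0.99.

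The lower tier held Anxa4, Anxa8, Anxa7 and Anxa3. Anxa4, a phospholipid-binding annexin of secretory and other epithelia, reached 0.353, 203 and 77.1 FPKM in Krt15-negative cells and 66.8, 143 and 104 FPKM in Krt15-positive cells. The Krt15-negative group thus held both the lowest and the highest value. The log2 difference of 1.86 (SE 1.54, 95% CI -1.52 to 5.24, limma adjusted p = 0.79) turned to -0.32 without Krt15-negative replicate 1.

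Anxa8 is an annexin of stratified epithelia that associates with late endosomes. It reached 36.8, 31.1 and 71.5 FPKM in Krt15-negative cells and 60.2, 53.9 and 69.8 FPKM in Krt15-positive cells (46.5 ± 21.9 against 61.3 ± 7.98 FPKM, SD, n = 3). The Krt15-positive values were all above the lower pair of Krt15-negative values and below the highest one. Krt15-positive cells were 0.48 higher on the log2 scale (SE 0.83, 95% CI -1.35 to 2.30, limma adjusted p = 0.88). The value was 0.36 without Krt15-negative replicate 1. Anxa8 was the only lower member that kept a level above 1 FPKM in that library.

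Anxa7, or synexin, described from its fusion of secretory granules, reached 0, 39.7 and 53.6 FPKM in Krt15-negative cells and 38.9, 48.2 and 42.1 FPKM in Krt15-positive cells. Outside Krt15-negative replicate 1, where it was listed at 0, its 5 values spanned only 38.9 to 53.6 FPKM. The difference of 1.75 log2 units (SE 1.44, 95% CI -1.40 to 4.91, limma adjusted p = 0.79) became -0.10 without that library.

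Anxa3 was the member with the largest difference. It reached 0, 8.59 and 59.4 FPKM in Krt15-negative cells and 129, 25.9 and 28.6 FPKM in Krt15-positive cells. The highest value belonged to Krt15-positive replicate 1, and Krt15-negative replicate 3 was above the other pair of Krt15-positive libraries, so that the groups overlapped. The log2 difference was 2.49 (SE 1.46, 95% CI -0.71 to 5.69, limma adjusted p = 0.79). That difference was 0.96 with Krt15-negative replicate 1 left out and 0.23 with both replicate 1 libraries left out. It was the only member whose difference stayed above 0 in all 17 alternatives run.

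Anxa6 and Anxa11 had the lowest mean log2 levels of the members, though Anxa3 exceeded Anxa6 in only 3 of 6 libraries. Anxa6, the annexin with a doubled core, reached 0, 35 and 6.47 FPKM in Krt15-negative cells and 7.62, 41.7 and 2.24 FPKM in Krt15-positive cells. Both replicate 2 libraries stood at 35 FPKM or more and the other 4 at 7.62 FPKM or less. The log2 difference was 0.72 (SE 1.51, 95% CI -2.60 to 4.03, limma adjusted p = 0.90), turning to -0.63 without Krt15-negative replicate 1 and to -0.29 without Krt15-positive replicate 2.

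Anxa11, whose protein tethers RNA granules to lysosomes, reached 0.0146, 0.704 and 2.21 FPKM in Krt15-negative cells and 0.381, 7.90 and 0.356 FPKM in Krt15-positive cells. At the estimated depth the lowest of these values is about 1.01 fragments and the highest about 649 fragments. Its difference of 0.53 on the log2 scale (SE 1.03, 95% CI -1.73 to 2.79, limma adjusted p = 0.90) turned to -0.37 without Krt15-positive replicate 2. The gene has an annotated antisense partner, Anxa11os, and since the library chemistry does not mark strand the reads of these genes cannot be told apart. Among Anxa4, Anxa8, Anxa7, Anxa3 and Anxa6 the ranges over libraries overlapped in every pair, so the ranges alone gave no order among these 5. Compared within the same library, Anxa4 exceeded both Anxa6 and Anxa7 in 6 of 6. Anxa6 exceeded Anxa7 in 0 of 6, both being listed at 0 in Krt15-negative replicate 1.

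**Figure D2:**
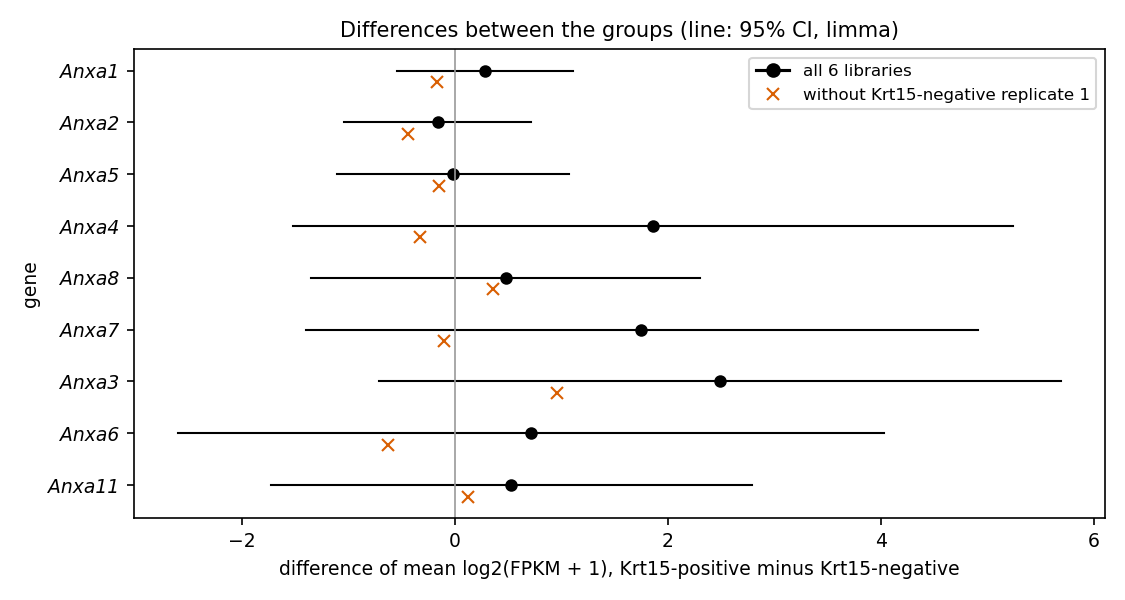
Difference in mean log2(FPKM + 1), Krt15-positive minus Krt15-negative, on the horizontal axis for each annexin. Black points and lines are the limma estimate and its 95% CI over all 6 libraries, and orange crosses the estimate without Krt15-negative replicate 1. Every interval includes 0, and the estimates for Anxa3, Anxa4 and Anxa7, between 1.75 and 2.49 with all libraries, lie between -0.32 and 0.96 without that library.

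Across the family, 7 of 9 differences were above 0 as deposited (6 with upper-quartile or median-of-ratios scaling, 8 with quantile normalization), beside 68.6% of all genes tested. The median difference of the members was 0.53 and that of all genes 0.63. Without Krt15-negative replicate 1, 3 of 9 members were above 0, with a member median of -0.15 and a median of all genes of 0.02. That library held 4 of 9 members at 1 FPKM or more, while each of the other 5 held 8 or 9. Anxa3, Anxa4, Anxa6 and Anxa7 were below 1 FPKM there and above 1 FPKM in the other 5 libraries, a pattern that 2129 of 9423 tested genes (22.6%) shared. A value below 1 FPKM in Krt15-negative replicate 1, counted without requiring 1 FPKM in each other library, was more frequent at lower levels. Of 831 genes with a mean of 30 to 60 FPKM in the other 5 libraries, the bin of Anxa3, Anxa7 and Anxa8, 51.3% had such a value. The share was 85.1% at 1 to 10 FPKM (Anxa11) and 67.4% at 10 to 30 FPKM (Anxa6). It was 29.8% at 60 to 150 FPKM (Anxa4), 7.22% at 150 to 500 FPKM (Anxa5) and 0% of 323 genes at 500 FPKM or more (Anxa1 and Anxa2).

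Anxa1 and Anxa2 together filled most of the annexin mRNA pool in every library. The 9 genes summed to 1978, 4428 and 4119 FPKM in Krt15-negative cells and to 3391, 4249 and 3335 FPKM in Krt15-positive cells. Anxa1 and Anxa2 together made up 85, 84.3 and 85.9% of that sum in Krt15-negative cells and 83.8, 84.4 and 82.3% in Krt15-positive cells. Within that pair the balance moved: the share of Anxa1 was 39.3, 40.9 and 53% against 57.5, 37.6 and 53.4%, and that of Anxa2 45.7, 43.5 and 32.9% against 26.2, 46.8 and 28.9%. Anxa2 was thus the larger in Krt15-negative replicates 1 and 2 and in Krt15-positive replicate 2, and Anxa1 in the other 3 libraries. The shares of both overlapped between the groups. The share of Anxa5 ran from 7.31 to 13.1% and that of Anxa8 from 0.703 to 2.09%. A share within a library does not depend on the scaling between libraries, though shares of a pair that fills most of a sum move against each other by construction.

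**Figure D3:**
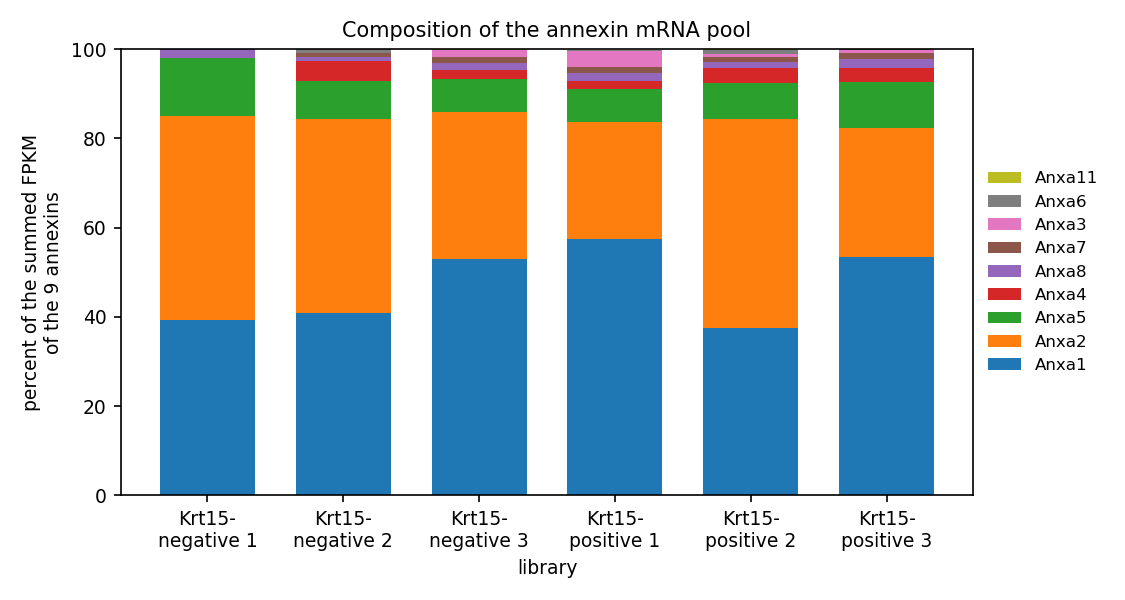
Share of each annexin in the summed FPKM of the 9 members, in percent on the vertical axis, for each library on the horizontal axis. Anxa1 and Anxa2 together take 82.3 to 85.9% in every library, and the 6 least abundant members take 1.88% in Krt15-negative replicate 1 and 6.56 to 8.93% in the others.

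Same-numbered libraries of the 2 groups resembled each other for some members. Anxa2, Anxa4, Anxa5 and Anxa6 were each higher in both replicate 2 libraries than in any of the other 4, as were 18.4% of all genes tested, Krt5, Krt14 and Krt15 among them. Krt15 stood at 6784 and 9692 FPKM in the replicate 2 libraries and at 2350 to 3412 FPKM in the others. Anxa2, Anxa4, Anxa5 and Anxa7 were lower in both replicate 1 libraries than in the other 4, as were 14.9% of all genes. Anxa8 was higher in both replicate 3 libraries, as were 5.26% of all genes. The sample names give both libraries of a number the same code. Whether that code marks a shared animal or day is not given in the labels, and the part of such a source in these values was not tested.

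The partners of the annexins showed no difference past the test either. Of 33 partner genes 22 reached the mean of 1 FPKM and were tested, and 0 passed at either the adjusted or an unadjusted p below 0.05, with 13 above 0, 9 below 0 and a median difference of 0.10. S100a10, whose protein p11 joins annexin A2 in a heterotetramer, reached 2324, 1447 and 2165 FPKM in Krt15-negative cells and 1436, 1375 and 1690 FPKM in Krt15-positive cells. The groups overlapped, with a log2 difference of -0.38 (SE 0.29, limma adjusted p = 0.79). Within each of the 3 replicate numbers the Krt15-positive value was the lower one. How many of all genes did the same was not counted, and the labels do not say that equal numbers are pairs. The ratio of Anxa2 to S100a10 was 0.389, 1.33 and 0.627 against 0.619, 1.45 and 0.57. It was above 1 in both replicate 2 libraries and below 1 in the other 4.

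S100a11, the partner of annexin A1, was the most abundant of these genes in 5 of 6 libraries. It stood at 2445, 4868 and 6139 FPKM against 5140, 4170 and 3607 FPKM, with a log2 difference of 0.03 (SE 0.30, limma adjusted p = 0.98). The ratio of Anxa1 to S100a11 was the steadier of the pair, at 0.318, 0.372 and 0.356 in Krt15-negative cells and 0.38, 0.383 and 0.494 in Krt15-positive cells. Every Krt15-positive ratio exceeded every Krt15-negative one, by 0.38 against 0.372 at the nearest point. It was 1 of 11 shares and ratios computed, and for the levels of single genes 11.3% of all tested did not overlap. A ratio of this kind was not tested. Anxa1 itself was low in the same library as S100a11, Krt15-negative replicate 1.

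S100a6, which encodes calcyclin, stood at 5042, 1330 and 2183 FPKM against 1830, 1059 and 1078 FPKM. The high value was that of Krt15-negative replicate 1, the library in which most annexins were lowest, and the log2 difference of -0.94 (SE 0.44, 95% CI -1.90 to 0.03, limma adjusted p = 0.79) was -0.41 without it. Here too the Krt15-positive value was the lower one within each of the 3 numbers, with the same limits as for S100a10. S100a4, a calcium-binding protein common in mesenchymal and immune cells, ranged from 0.0877 to 53.3 FPKM with both groups spanning most of that range. Ahnak, the giant scaffold that S100A10 and annexin A2 anchor at the membrane, was even, at 36.6, 34.2 and 33.8 FPKM against 49.9, 30 and 46.1 FPKM.

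**Figure D4:**
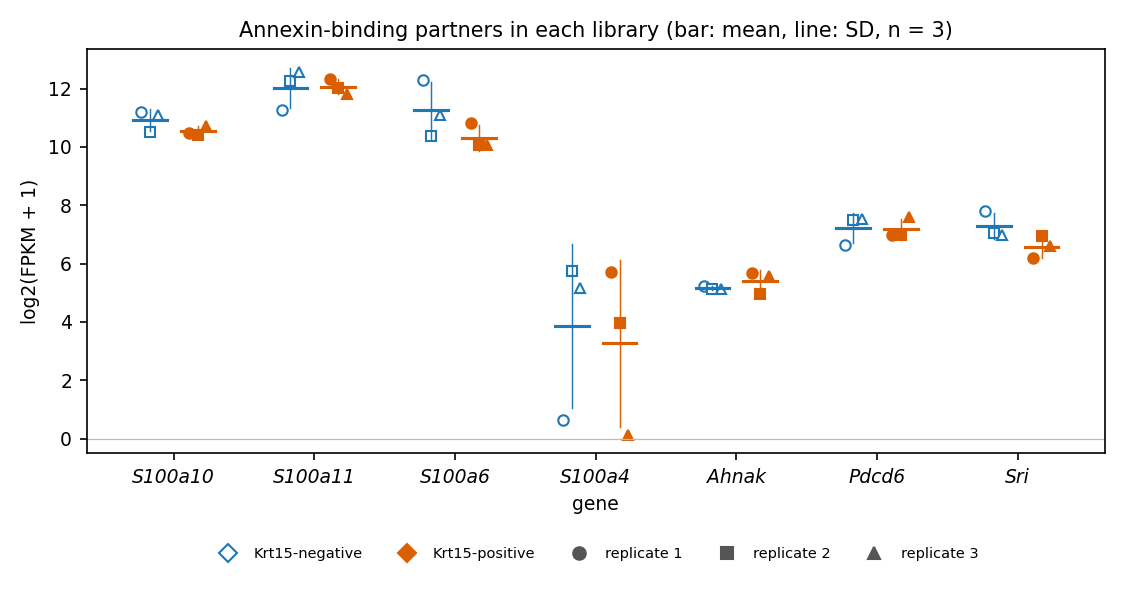
Level of the S100 and AHNAK partners and of Pdcd6 and Sri in each library, as log2(FPKM + 1) on the vertical axis, with genes on the horizontal axis. Symbols, bars and lines are as in the plot of the annexins by library (means and SD, n = 3). Only Sri has groups that do not overlap, at 126 to 222 FPKM in the Krt15-negative and 71.3 to 123 FPKM in the Krt15-positive libraries.

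Among the partners with penta-EF-hand calcium-binding domains, Pdcd6 (ALG-2, which binds annexins A7 and A11) stood at 97.8, 180 and 185 FPKM against 124, 124 and 191 FPKM. Sri (sorcin, which binds annexin A7) stood at 222, 133 and 126 FPKM against 71.3, 123 and 95.3 FPKM. All 3 Krt15-positive values were lower than any Krt15-negative one, by a narrow gap, and the log2 difference of -0.71 (SE 0.68, 95% CI -2.20 to 0.77) did not pass (limma adjusted p = 0.79). It was the only one of the 22 tested partners without overlap in that direction, where all genes gave 2.44%, and none lay without overlap in the other direction (8.85% of all genes). Gca was listed at 0 throughout.

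In the membrane repair and ESCRT list, 7 of 8 genes were tested, 5 above and 2 below 0. Its most abundant genes were Chmp2a, an ESCRT-III subunit, at 616, 348 and 798 FPKM against 467, 466 and 501 FPKM, and Tsg101, of ESCRT-I, at 67.1, 80.8 and 65.3 FPKM against 42.9, 97.1 and 89.2 FPKM. Dysf, which encodes the muscle repair protein dysferlin, was listed at 0 in all 6 libraries. In the plasmin system, whose activation annexin A2 with S100A10 is known to promote at cell surfaces, 2 of 6 genes were tested. Plaur, the urokinase receptor, stood at 0, 63.5 and 21.5 FPKM against 193, 18.7 and 21.7 FPKM, and Serpinb2, a plasminogen activator inhibitor, at 1.37, 58.6 and 25.9 FPKM against 0, 19.4 and 69.7 FPKM. Krt15-positive replicate 1 held both the highest Plaur and the lowest Serpinb2 value.

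The formyl peptide receptor genes Fpr1, Fpr2 and Fpr3, through which extracellular annexin A1 acts on leukocytes, were listed at 0 in all 6 libraries. Pla2g4a, the gene of a cytosolic phospholipase that annexin A1 has been described to inhibit, stood at 0, 24.6 and 4 FPKM against 5.28, 8.74 and 8.13 FPKM. Of the signalling partners, the phosphatase gene Ptpn1 stood at 12, 18.8 and 17.6 FPKM against 11.8, 24.3 and 10.2 FPKM. Rasa1, whose Ras GTPase-activating protein binds annexin A6, stood at 0.00665, 3.26 and 6.57 FPKM against 8.1, 7.12 and 3.97 FPKM. None of these 3 genes separated the groups.

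The profiles most like that of Anxa1, the member of highest mean log2 level, were sought among 9414 other genes over the 6 libraries. Likeness was the root mean square difference of log2(FPKM + 1) profiles after each was centred on its own mean. The nearest were Elof1 (0.105), Erp29 (0.127), Mrpl17 (0.137), Cd9 (0.153) and Cst3 (0.167), where the median over all genes was 1.18. Cd9, which encodes a tetraspanin, stood at 820, 1957 and 1873 FPKM against 1845, 1393 and 2011 FPKM, at about the level of Anxa1 and low in the same library. For Anxa4, the member of largest spread (SD 2.66 on the log2 scale), the nearest were Tprgl (0.109), Mtch2 (0.159), Maf1 (0.183), Idh3b (0.223) and Acadvl (0.239), with a median of 2.18 over all genes. All 5 fell short of 1 FPKM in Krt15-negative replicate 1 (0.226 FPKM or less) and stood at 43.2 FPKM or more elsewhere. A value below 1 FPKM in that library alone was common, shared by 22.6% of tested genes. Like Anxa4, the 5 genes were also highest in both replicate 2 libraries. The genes near Anxa1 and Anxa4 were chosen for likeness over these same 6 libraries, so sharing their low and high libraries follows from that choice.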

How the data were processed

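The deposited table holds FPKM values that the authors estimated, 1 column per library, and no column of any other sample. The tools named, per the submitters' processing notes, are STAR 2.5, Cufflinks 2.2.1 and DESeq2 with the mm9 build, in no stated role or order. The sources used here give neither the annotation nor read filters. Per the labels' protocols, cDNA was made from cells with a SMART-Seq v4 kit. Transcript lengths in FPKM are estimates and an exact 0 can be a failed estimate, so genes listed at 0 are given per library. Of 24043 rows, 27 whose symbol had become a date were left out.

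The 9423 genes whose mean reached 1 FPKM were fitted as log2(FPKM + 1) with limma 3.58.1 in R 4.3.3 (variance trend, group as the only term, all 6 libraries, 2-sided), adjusted by Benjamini-Hochberg and called below 0.05. Fold changes on this scale understate those of low genes. Depth was read from 6640 genes with 1 annotated transcript. The members, partner and marker lists were chosen with earlier results of these data known. Named partners were all S100 and AHNAK partners and the 2 most abundant of each other list. Cd9 was singled out after its values were seen, as was the replicate-number pattern. The alternatives changed the pseudocount, filter, scaling, weights, trend, block and libraries.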

Additional observations from a re-analysis of the deposited data

How the results depend on the processing

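Over 17 alternatives, no annexin and no partner passed, with adjusted p of the members (limma) between 0.596 and 1. Over all genes 0 passed in the alternatives, except with library weights, which called 8 genes and no member. Of 152 member values, 23 turned sign. All medians moved with the scaling: the median of all genes, 0.63 as deposited, was 0.48 with upper-quartile scaling, 0.41 with median-of-ratios scaling, 0.04 with quantile normalization and 0.17 with library weights. With upper-quartile scaling the difference turned to -0.18 for Anxa1, -0.44 for S100a11, -0.23 for Ahnak and -0.44 for Tsg101, and with median-of-ratios scaling to -0.20, -0.46, -0.24 and -0.45. Quantile normalization turned it to 0.18 for Anxa2, 0.20 for Anxa5, -0.56 for Anxa11, 0.026 for S100a10, 0.089 for Pdcd6 and 0.054 for Chmp2a. Library weights turned it to -0.17 for Anxa1, -0.0045 for Anxa8, -0.044 for Anxa11 and -0.36 for S100a11. Leaving out 1 library at a time gave -0.17 to 0.58 for Anxa1, -0.52 to 0.11 for Anxa2, -0.32 to 3.30 for Anxa4, -0.15 to 0.14 for Anxa5, -0.63 to 1.96 for Anxa6, -0.10 to 2.78 for Anxa7 and -0.37 to 0.99 for Anxa11. For partners it gave -0.36 to 0.30 for S100a11, -2.20 to 0.98 for S100a4, -0.35 to 0.11 for Pdcd6, -0.55 to 0.046 for Chmp2a, -0.19 to 0.39 for Tsg101, -1.83 to 1.28 for Serpinb2, -0.46 to 1.88 for Pla2g4a and -0.49 to 0.098 for Ptpn1. Leaving out both replicate 1 libraries turned the difference to -0.24 for Anxa1, -0.036 for Anxa4, 0.0072 for Anxa5, -0.48 for Anxa6, -0.033 for Anxa7, -0.50 for S100a11, -0.85 for Plaur and -0.26 for Pla2g4a. The cause of these turns was not tested. The 11 shares and ratios were recomputed only with libraries left out (7 settings, 77 values). Of these values, 11 turned sign. Each moved by less than 1 SD between replicates, but leaving out 1 of 3 libraries cannot move a difference that far. That bound therefore says nothing about stability. The Anxa1 share difference of 5.13 percentage points ran from -1.43 (without both replicate 1 libraries) to 11.1 (without Krt15-positive replicate 2), that of Anxa2 from -13.2 to -0.35, and that of Anxa5 from -2.25 to 1.17. The difference in the Anxa2 to S100a10 ratio, 0.097, ran from -0.19 to 0.37, and that in the Anxa1 to S100a11 ratio, 0.070, from 0.033 to 0.090. With the replicate number as a block, 0 genes and 0 members passed and no call changed. Same-numbered libraries deviated together at correlations over genes of 0.128, 0.168 and 0.00886 for numbers 1 to 3, and not every library correlated best with its own number. The intervals of Anxa3, Anxa4, Anxa6 and Anxa7 span more than 6 log2 units, so this comparison could not have shown a difference of moderate size for these genes.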
